A study of Mus musculus with 6 samples.

Results

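The 41 genes described here encode the enzymes and transporters of glycolysis and the wider response to low oxygen, and they were taken by gene symbol from the 28584 symbols measured by RNA-seq in mouse embryonic stem cells (mESCs). They comprised 21 glycolytic genes (glucose and lactate transporters, the enzymes between them and the PFKFB regulators) and 20 other targets or regulators of the hypoxia-inducible factors (HIFs). All 41 symbols were found, and 40 were tested, since Car9 stayed under 1 TPM, a transcript level scaled by gene length and library total, in every library. The mESC line, of the strain C57BL6/129S6, had been grown for 5 passages on mitomycin C-inactivated embryonic fibroblasts before it was moved to a serum-containing basic medium for 10 further passages (P10). -LIF-ESCs received no cytokine, LIF-ESCs received 1000 U/mL leukemia inhibitory factor (LIF) and OSM-ESCs received oncostatin M (OSM), a cytokine of the same family. Each group had 2 libraries of poly-A RNA from this 1 line, and the labels do not say whether feeder cells remained in the cultures. The comparisons asked how the members' transcripts stood with LIF or with OSM against no cytokine, and with OSM against LIF.

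Glycolysis splits glucose into pyruvate in the cytosol, with a small yield of ATP, and lactate dehydrogenase and a lactate exporter let the pathway run on without the mitochondrion. HIFs are pairs of an alpha subunit and a partner that bind DNA at a short core sequence. Oxygen-dependent prolyl hydroxylases mark the alpha subunits for degradation, so that the factors build up when oxygen is low and switch on genes of glucose uptake, glycolysis and blood vessel growth. Cultured mESCs are known to rely on glycolysis together with respiration.

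The HIF core letters ACGTG and GCGTG, read on either strand, were searched in the promoters of the members. RefSeq promoter windows (GRCm38.p6, 250 bases before to 50 after a start site) were found for 37 members, 55 windows in all. ACGTG was in at least 1 window of 25 of these 37 genes (67.6%), 13 of 20 glycolytic members and 12 of 17 others, against 29.0% of the 11174 tested genes with a window. Counted by window, where a gene with several start sites counts several times, ACGTG was in 52.7% of the members' windows and in 25.1% of those of the tested genes. GCGTG was in at least 1 window of 24 of the 37 genes (64.9%), against 54.6% of the tested genes with a window. It is not marked below. A palindrome, CACGTG, which other factors also bind, counts once on each strand. It was in a window of 5 members, of which 1 had no other ACGTG match. A match is a description of the letters, and no binding was measured. Many members were listed because they are known HIF targets, so these shares are not a test of the list. The 250 bases before the start site are shown for 5 members on the forward strand, 5′ to 3′, with the letters ACGTG or CACGT in capitals. Ldha (chr7:46845554-46845803), Pgk1 (chrX:106186850-106187099) and Slc16a3 (chr11:120948817-120949066) are shown as glycolytic genes that were lower with either cytokine, and Hif1a (chr12:73907617-73907866) and Gys1 (chr7:45434589-45434838) as genes that were higher.
Ldha: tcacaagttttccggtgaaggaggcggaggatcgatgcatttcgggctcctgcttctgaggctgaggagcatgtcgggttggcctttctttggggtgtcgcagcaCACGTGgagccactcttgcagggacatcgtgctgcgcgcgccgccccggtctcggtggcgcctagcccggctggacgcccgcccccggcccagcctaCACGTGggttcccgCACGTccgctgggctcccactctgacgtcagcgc
Pgk1: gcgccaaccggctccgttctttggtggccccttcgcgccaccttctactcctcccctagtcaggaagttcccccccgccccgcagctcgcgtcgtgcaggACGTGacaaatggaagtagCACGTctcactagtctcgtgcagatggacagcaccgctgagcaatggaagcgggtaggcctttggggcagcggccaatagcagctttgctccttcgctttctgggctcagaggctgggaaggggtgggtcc
Slc16a3: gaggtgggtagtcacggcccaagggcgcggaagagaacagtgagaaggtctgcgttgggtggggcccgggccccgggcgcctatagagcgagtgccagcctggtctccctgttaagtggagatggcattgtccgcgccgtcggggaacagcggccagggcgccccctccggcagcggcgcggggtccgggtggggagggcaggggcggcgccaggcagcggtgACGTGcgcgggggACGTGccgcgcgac
Hif1a: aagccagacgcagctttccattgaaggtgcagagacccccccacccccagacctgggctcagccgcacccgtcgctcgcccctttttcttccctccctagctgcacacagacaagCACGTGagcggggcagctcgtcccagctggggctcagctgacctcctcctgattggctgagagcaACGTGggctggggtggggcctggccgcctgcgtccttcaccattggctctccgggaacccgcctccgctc
Gys1: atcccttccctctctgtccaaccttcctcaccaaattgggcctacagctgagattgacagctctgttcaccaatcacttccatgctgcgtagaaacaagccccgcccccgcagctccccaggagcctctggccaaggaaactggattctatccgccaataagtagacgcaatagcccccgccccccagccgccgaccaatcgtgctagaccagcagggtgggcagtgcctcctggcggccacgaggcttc
The stretch of Ldha held 5 ACGTG matches, with both palindromes among them, that of Hif1a 3, those of Pgk1 and Slc16a3 2 each, and that of Gys1 0. These 5 promoters were picked as examples, so their counts do not compare lower with higher members. Among the members higher with either cytokine, Hif1a had ACGTG in a window. Vegfa had it in the window of a start site inside the gene (chr17:46025114-46025413) but not in that at its 5′ end (chr17:46032328-46032627). Gys1, Pdk1 and Kdm3a had it in none, and no window was found for Epas1.

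Transcripts of the glycolytic members were highest in -LIF-ESCs. Levels are given as TPM, transcript abundances scaled by gene length and to a fixed total per library, so levels can be set side by side between genes but a rise of some genes lowers the others. Summed over the 21 glycolytic members, TPM reached 10878 and 10805 without cytokine, 5373 and 5363 with LIF, and 5050.2 and 5036 with OSM, or 1.09% and 1.08%, 0.537% and 0.536%, and 0.505% and 0.504% of all TPM. The sum in -LIF-ESCs was about double that of the other groups, with no overlap, and OSM-ESCs lay slightly below LIF-ESCs. The 20 other members together had 1102 and 1134 TPM without cytokine, 876 and 868 TPM with LIF, and 773 and 739 TPM with OSM, the same order. Much of this sum in -LIF-ESCs was Ddit4 (496 and 521 TPM) and Bnip3 (149.7 and 157 TPM), so it does not describe these members as a set. Of the 19 tested, 11 were lower and 6 higher with either cytokine at a limma adjusted p under 0.05. Of all genes tested, 25.9% were lower and 42.2% higher with LIF, and 25.4% and 42.9% with OSM. In bulk RNA, fewer cells that express a gene and less RNA per cell cannot be told apart.

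**Figure D1:**
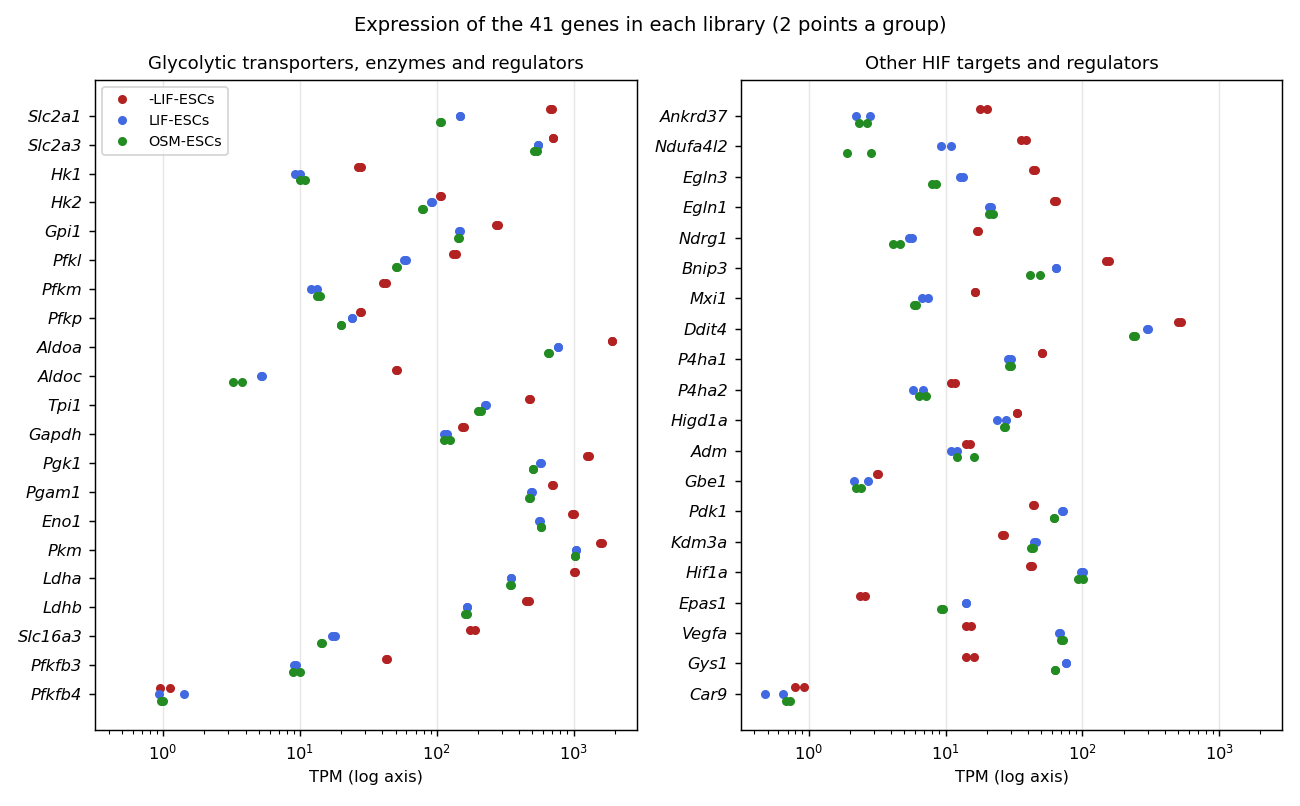
TPM of each of the 41 members in the 6 libraries, on a log axis, with glycolytic members on the left and the others on the right. Each point is 1 library, coloured by group, and in the left panel the points of -LIF-ESCs lie to the right of the others for 20 of 21 genes, Pfkfb4 being the exception, while Pdk1, Kdm3a, Hif1a, Epas1, Vegfa and Gys1 in the right panel show the opposite order.

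Groups were compared with limma on log2(TPM + 1), which understates the fold change of genes with a low TPM. The Benjamini-Hochberg adjustment of p covered the 18556 genes tested. Called genes are those past an adjusted p of 0.05 whose log2 fold change was also 1 or more, or -1 or less. LIF-ESCs had 31 of the 40 tested members lower and 6 higher than -LIF-ESCs at an adjusted p under 0.05, where 25.9% of all genes tested were lower and 42.2% higher. Called members numbered 19 lower and 4 higher, against 8.09% and 13.3% of all genes. In OSM-ESCs against the same -LIF-ESC libraries, the counts were again 31 lower and 6 higher, where the background was 25.4% lower and 42.9% higher, and 20 lower and 4 higher were called, against 7.86% and 14.2%. The 31 lower and the 6 higher members were the same genes in both comparisons, which share the -LIF-ESC libraries.

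Of the 21 glycolytic members, 20 were lower and 0 higher at an adjusted p under 0.05 in each comparison with -LIF-ESCs, 12 of them called lower, and only Pfkfb4 did not pass the test. By unadjusted p under 0.05 the count was also 0 higher. Of the 19 tested others, 11 were lower and 6 higher, with 7 called lower in LIF-ESCs and 8 in OSM-ESCs, and 4 called higher in each. The median log2 fold change of the glycolytic members was -1.15 with LIF and -1.31 with OSM, that of the others -0.76 and -0.67, and that of all genes tested 0.17 and 0.18. This upward shift of all genes was removed by rescaling each library by the median ratio, after which the medians of the glycolytic members were -1.34 and -1.50. Rescaled, 33 members were lower with LIF and 32 with OSM, 6 were higher in each, and 21 were called lower in each. With LIF 4 and with OSM 3 were called higher, Hif1a dropping to 0.98. Over all genes, rescaling moved the share of higher genes among those called from 62.2% to 49.7% with LIF and from 64.3% to 51.0% with OSM, and no member past the adjusted p changed direction. With 2 libraries in each of 2 groups, the smallest two-sided p of an exact permutation test is 0.333, and all p-values given here are those of the limma model.

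**Figure D2:**
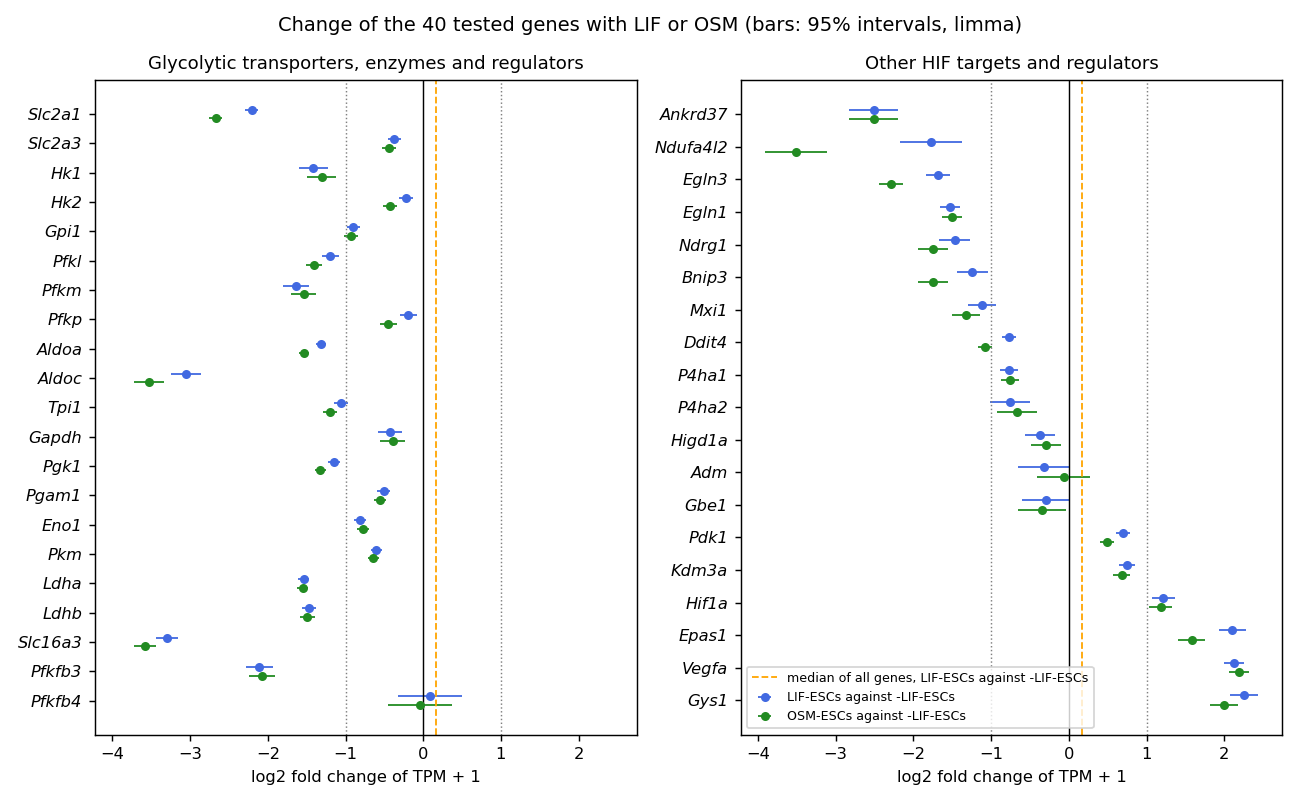
Log2 fold change of TPM + 1 of the 40 tested members in LIF-ESCs (blue) and OSM-ESCs (green) against -LIF-ESCs, with 95% intervals from limma. Solid lines mark 0, dotted lines the limits of -1 and 1 used for a call, and the dashed line the median of all genes in LIF-ESCs against -LIF-ESCs at 0.17. All glycolytic members but Pfkfb4 lie left of 0, down to -3.58 for Slc16a3 in OSM-ESCs, and the others run from -3.51 for Ndufa4l2 to 2.25 for Gys1.

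Markers of other cell types moved with the same groups. Depth, recovered as whole reads from TPM and gene lengths, was 18773813 to 26031901 reads a library, and the median SD of a glycolytic member was 2.02%, 1.22% and 1.41% of its mean in -LIF-ESCs, LIF-ESCs and OSM-ESCs. Of 15 embryonic stem cell markers, 12 were higher and 2 lower in each comparison with -LIF-ESCs. Of these, 7 were called higher and 1 lower in each. The sum of this list was lowest without cytokine, at 5520 and 5506 TPM. It ranged from 7527 to 7634 TPM with LIF and from 7092 to 7097 TPM with OSM. Pou5f1 (Oct4), Sox2 and Nanog were above 200 TPM in all libraries. Their presence does not show that -LIF-ESCs were undifferentiated, and the paper describes only differentiated clones in that group. The summed TPM of 14 markers of simple epithelium and differentiation was 2527 and 2504 in -LIF-ESCs and 62.5 to 75.6 in the other libraries, with 9 of 13 tested lower in each comparison, 4 higher with LIF and 3 higher with OSM. That of 27 fibroblast markers was 202 and 194 without cytokine, 1204 and 1188 with LIF, and 1612 and 1571 with OSM. Of 26 tested fibroblast markers, 24 were higher and 2 lower in each comparison with -LIF-ESCs, 6 were higher and 0 lower in OSM-ESCs against LIF-ESCs, and Mmp3, Ccl7 and Fap were at 0 in both -LIF-ESC libraries. The part of differentiated or fibroblast cells in the changes of the members, those of Vegfa, Hif1a and Epas1 with the fibroblast markers and those of the glycolytic members with the epithelial markers, was not tested.

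**Figure D3:**
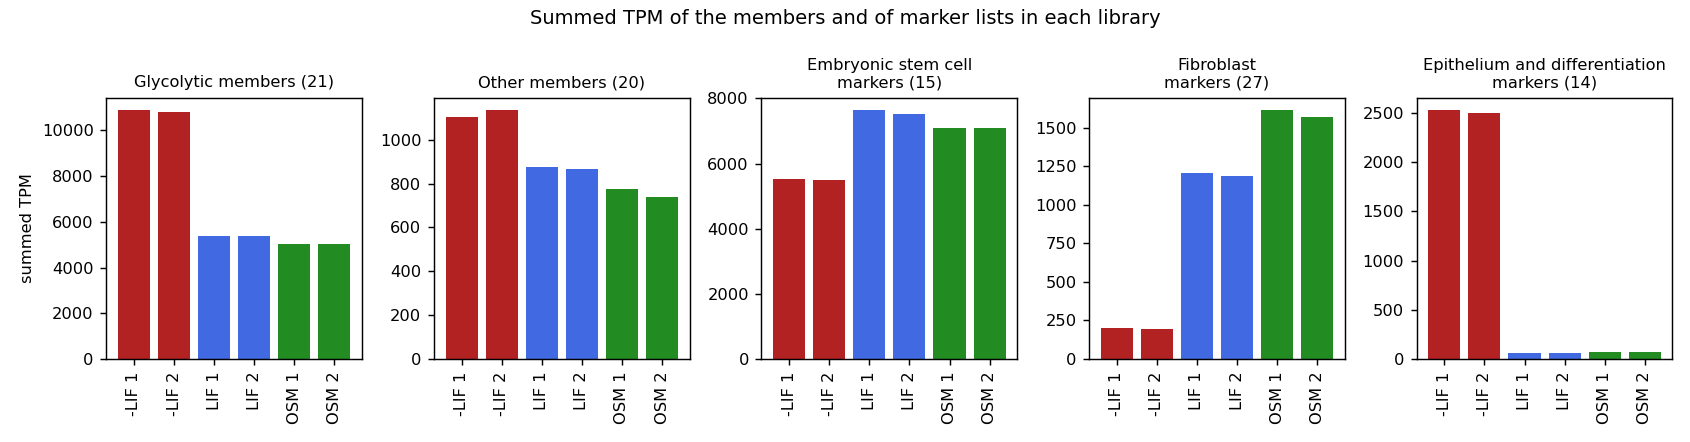
Summed TPM in each library of the 21 glycolytic members, the 20 other members and 3 marker lists, each panel with its own axis from 0. The glycolytic sum is 10878 and 10805 in -LIF-ESCs and 5036 to 5373 in the other libraries. The epithelial markers share this direction, and the fibroblast and embryonic stem cell markers run the other way.

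Of the 3 transporters, Slc2a1 and Slc16a3 were called lower with either cytokine and Slc2a3 fell without reaching a call. Slc2a1, which encodes the glucose transporter GLUT1, was at 698 and 674 TPM in -LIF-ESCs, 148 and 147 TPM in LIF-ESCs, and 106 and 108 TPM in OSM-ESCs. It was 4.64-fold higher in -LIF-ESCs than in LIF-ESCs and 6.42-fold higher than in OSM-ESCs, with log2 fold changes of -2.21 ± 0.03 (SE, n = 2 a group, limma adjusted p = 2.0e-06) and -2.67 ± 0.03 (limma adjusted p = 1.4e-06). Slc2a3, the gene of the high-affinity glucose transporter GLUT3, was at 710.4 and 710.0 TPM in -LIF-ESCs, 549.5 and 549 TPM in LIF-ESCs, and 537 and 510.2 TPM in OSM-ESCs, and it fell by 0.37 and 0.44 on the log2 scale. Slc2a1 and Slc2a3 were thus at nearly equal levels in -LIF-ESCs, where Slc2a1 made up 49.5% and 48.7% of their summed TPM. Its share was 21.2% in each LIF-ESC library and 16.4% and 17.4% in OSM-ESCs, so that Slc2a3 was the more abundant transporter with cytokine.

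Slc16a3 encodes MCT4, the lactate exporter. It was at 189 and 176 TPM in -LIF-ESCs, 18.2 and 17.0 TPM in LIF-ESCs, and 14.4 and 14.3 TPM in OSM-ESCs. Its log2 fold changes were -3.30 ± 0.06 (SE, n = 2 a group, limma adjusted p = 3.0e-06) and -3.58 ± 0.06 (limma adjusted p = 2.2e-06). The mean in -LIF-ESCs was 10.4-fold that in LIF-ESCs and 12.7-fold that in OSM-ESCs. With OSM, Aldoc was lower still by this ratio of means (14.5-fold), while Slc16a3 was lower on the log2(TPM + 1) scale.

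At the first steps, which trap and activate glucose, isoforms of 1 enzyme had unequal log2 fold changes. Hk2, the hexokinase tied to the outer mitochondrial membrane in proliferating cells, was at 108 and 105 TPM in -LIF-ESCs, 92.3 and 90.1 TPM in LIF-ESCs, and 79.0 and 78.5 TPM in OSM-ESCs. The groups did not overlap, but the log2 fold changes were -0.22 and -0.43. Hk1, the housekeeping hexokinase, was at 27.9 and 26.5 TPM in -LIF-ESCs, 10.1 and 9.13 TPM in LIF-ESCs, and 10.8 and 9.94 TPM in OSM-ESCs, with log2 fold changes of -1.41 and -1.31. Hk2 made up 79.4% to 79.8% of the 2 in -LIF-ESCs and 87.9% to 90.8% in the other groups.

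Gpi1, glucose phosphate isomerase, was at 279 and 269 TPM in -LIF-ESCs against 142 to 147 TPM in the 4 other libraries, which is just short of the limit for a call at -0.90 with LIF and -0.93 with OSM. The phosphofructokinases, which commit the sugar to glycolysis, are made by Pfkl (liver type), Pfkm (muscle type) and Pfkp (platelet type). Pfkl, the most abundant, was at 139 and 132 TPM in -LIF-ESCs, 59.6 and 57.5 TPM in LIF-ESCs, and 50.8 and 50.2 TPM in OSM-ESCs, with log2 fold changes of -1.19 and -1.41. For Pfkm the values were 42.3 and 40.7 TPM without cytokine, 13.3 and 12.0 TPM with LIF, and 13.2 and 13.9 TPM with OSM. These were called at -1.64 and -1.54. Pfkp was at 27.5 and 27.8 TPM in -LIF-ESCs, 24.1 TPM in both LIF-ESC libraries and 20.0 TPM in both OSM-ESC libraries, with log2 fold changes of -0.19 (limma adjusted p = 0.0102) and -0.45 (limma adjusted p = 3.9e-04). In LIF-ESCs, Pfkp lost the test when -LIF replicate 2 or either LIF replicate was left out (limma adjusted p between 0.0505 and 0.0529). Its share of the family's TPM was 13.2% and 13.8% in -LIF-ESCs and 23.7% to 25.7% elsewhere.

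Pfkfb3 and Pfkfb4 encode bifunctional enzymes that set the level of fructose 2,6-bisphosphate, the activator of phosphofructokinase. Pfkfb3 was at 43.5 and 42.6 TPM in -LIF-ESCs, 9.01 and 9.41 TPM in LIF-ESCs, and 9.98 and 8.95 TPM in OSM-ESCs. It was 4.67-fold and 4.55-fold higher without cytokine, with log2 fold changes of -2.11 ± 0.07 (SE, n = 2 a group, limma adjusted p = 1.2e-05) and -2.07 ± 0.07 (limma adjusted p = 1.2e-05). Pfkfb4 was near 1 TPM throughout, from 0.932 to 1.42 TPM, and did not pass the test in any comparison.

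**Figure D4:**
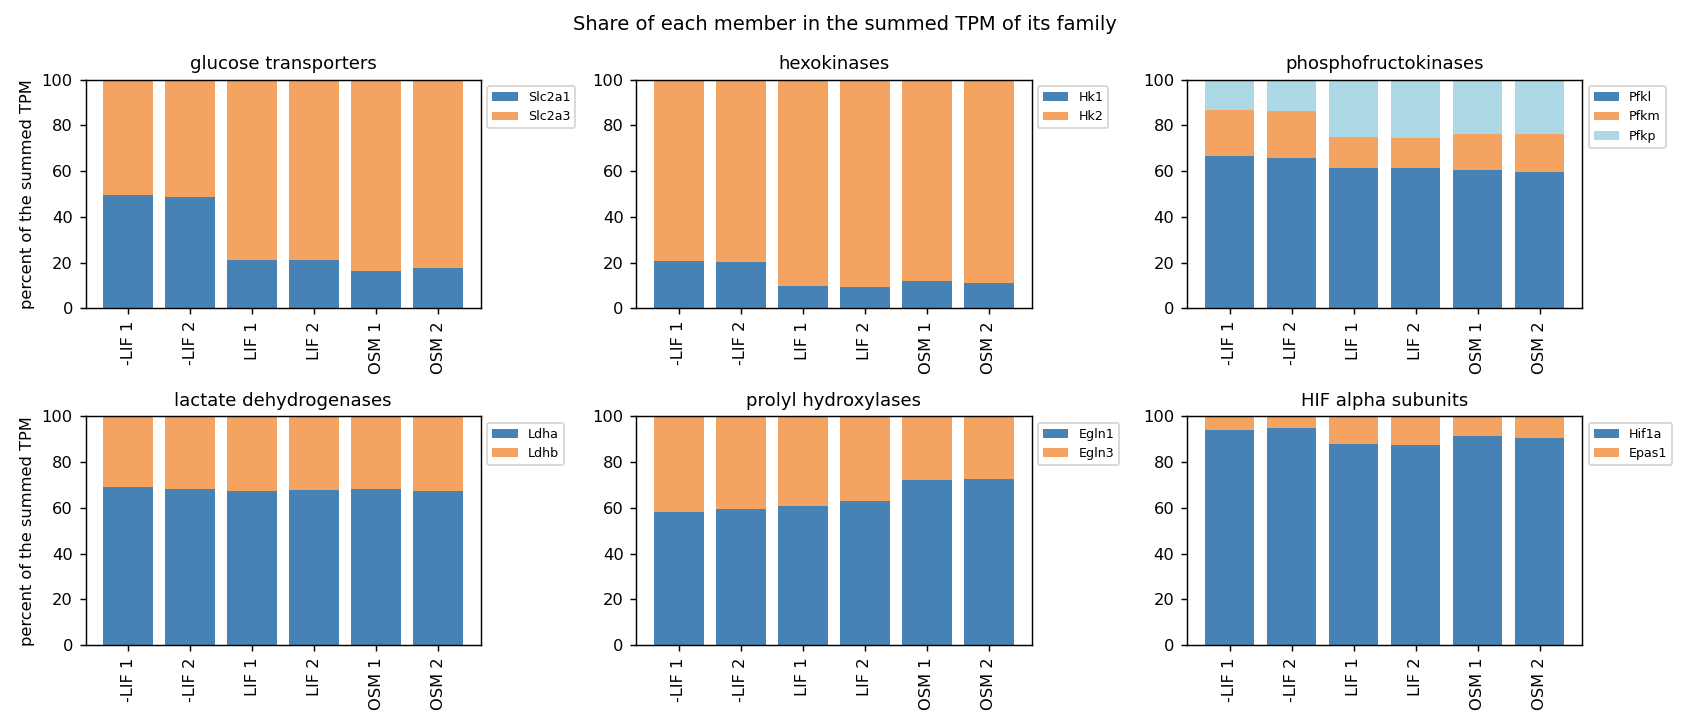
Percent of the summed TPM of 6 families taken by each member, 1 stacked bar a library. Slc2a1 makes up 49.5% and 48.7% of the glucose transporters without cytokine, against 16.4% and 17.4% with OSM, while Ldha stays at 67.3% to 69.3% of the lactate dehydrogenases in all 6 libraries.

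In the aldolase step, which splits the sugar, Aldoa was the most abundant member, at 1891 and 1914 TPM in -LIF-ESCs, 764 and 765 TPM in LIF-ESCs, and 659.7 and 652 TPM in OSM-ESCs. It was called lower in both comparisons, at -1.31 and -1.54. Aldoc, the brain-type aldolase, was at 50.4 and 51.0 TPM in -LIF-ESCs but only 5.26 and 5.20 TPM in LIF-ESCs and 3.76 and 3.23 TPM in OSM-ESCs. Its means differed 9.70-fold and 14.5-fold, with log2 fold changes of -3.05 ± 0.08 (SE, n = 2 a group, limma adjusted p = 6.7e-06) and -3.53 ± 0.08 (limma adjusted p = 4.5e-06), yet at its highest it made up 2.60% of aldolase TPM.

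Tpi1 and Pgk1 were called lower in both comparisons. Tpi1, triosephosphate isomerase, was at 481 and 471 TPM in -LIF-ESCs, 225 and 230.1 TPM in LIF-ESCs, and 211 and 201 TPM in OSM-ESCs (log2 fold changes of -1.06 and -1.20). Pgk1, phosphoglycerate kinase, which makes the first ATP of the pathway, was at 1254 and 1290.3 TPM, 568 and 578 TPM, and 509 and 506 TPM in the same order of groups (-1.15 and -1.32). Between them and pyruvate, Pgam1 and Pkm had smaller log2 fold changes. Pgam1, phosphoglycerate mutase, stood at 692 and 704 TPM in -LIF-ESCs, 496 and 484 TPM in LIF-ESCs, and 468 and 481 TPM in OSM-ESCs, or -0.51 and -0.56 on the log2 scale. Pkm, pyruvate kinase, was at 1615 and 1564 TPM in -LIF-ESCs, 1046 and 1048 TPM in LIF-ESCs, and 1019.8 and 1019 TPM in OSM-ESCs, or -0.60 and -0.64. It was the most abundant member in LIF-ESCs and OSM-ESCs, and the level of Aldoa exceeded it in -LIF-ESCs alone.

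The lactate dehydrogenases fell together. Ldha, which favours lactate, was at 1019 and 1008 TPM in -LIF-ESCs, 346 and 351 TPM in LIF-ESCs, and 346 and 343 TPM in OSM-ESCs. Ldhb, which favours pyruvate, was at 452 and 469.6 TPM, 167 and 166 TPM, and 160.1 and 167 TPM. The log2 fold changes were -1.54 and -1.55 for Ldha and -1.47 and -1.49 for Ldhb, and Ldha made up 67.3% to 69.3% of their sum in every library.

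Several of these genes have near-identical copies in the genome, among which the authors' counting could have split reads. Of the 50-base stretches of Gapdh, glyceraldehyde-3-phosphate dehydrogenase, 82.5% also occurred in another annotated transcript, and the figure was 72.2% for Eno1 (enolase), 68.0% for Pgk1, 41.5% for Pgam1 and 34.4% for Pkm. Gapdh was at 154 and 158 TPM in -LIF-ESCs, 119 and 112 TPM in LIF-ESCs, and 112 and 125 TPM in OSM-ESCs, well below neighbouring steps, while its copy Gm5559 was at 888 and 904 TPM, 649 and 644 TPM, and 657 and 678 TPM. Another copy, Gm13394, ran the other way, at 28.2 and 14.5 TPM, 71.0 and 87.5 TPM, and 105 and 117 TPM. The value of Gapdh alone is therefore uncertain. The log2 fold change of Gapdh was -0.43 with LIF and -0.39 with OSM, and with the 19 copies that share at least 50% of its stretches summed it was -0.42 and -0.30. Eno1 was at 1004 and 969.9 TPM in -LIF-ESCs, 564 and 561 TPM in LIF-ESCs, and 576 and 579 TPM in OSM-ESCs, at -0.81 and -0.77. Its copy Eno1b was at 1295 and 1166 TPM in -LIF-ESCs, above Eno1 itself, and at 305 to 339.6 TPM in the other libraries. Summed with 2 copies, enolase stood at 2576 and 2393 TPM, 964 and 956 TPM, and 1020.2 and 1032 TPM, with log2 fold changes of -1.37 and -1.27. For Pgk1, the gene itself held 99.2% to 99.4% of the mean TPM summed with 2 copies. The sum had log2 fold changes of -1.15 and -1.33. The direction of Gapdh, Eno1 and Pgk1 was the same with and without the copies in each comparison. In OSM-ESCs against LIF-ESCs, the sums had log2 fold changes of 0.13 for Gapdh, 0.10 for Eno1 and -0.18 for Pgk1. The genes alone had 0.04, 0.04 and -0.17. No test was run on the sums, which were chosen after the copies' values were seen.

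The other HIF targets went both ways. Egln1 and Egln3 encode the prolyl hydroxylases PHD2 and PHD3, which mark HIF alpha subunits for degradation and are themselves HIF targets. Egln1 was at 61.7 and 64.1 TPM in -LIF-ESCs, 20.7 and 21.5 TPM in LIF-ESCs, and 22.1 and 20.9 TPM in OSM-ESCs, with log2 fold changes of -1.53 and -1.51. Egln3 was at 44.7 and 43.4 TPM, 13.4 and 12.7 TPM, and 8.52 and 7.90 TPM, with log2 fold changes of -1.68 ± 0.06 (SE, n = 2 a group, limma adjusted p = 1.8e-05) and -2.29 ± 0.06 (limma adjusted p = 7.2e-06). All 3 groups were apart for Egln3, and LIF-ESCs and OSM-ESCs overlapped for Egln1.

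Ndufa4l2, which encodes a mitochondrial protein that lowers complex I activity in hypoxia, was at 38.6 and 35.6 TPM in -LIF-ESCs, 11.0 and 9.31 TPM in LIF-ESCs, and 1.90 and 2.86 TPM in OSM-ESCs. The -LIF-ESC mean was 3.66-fold that of LIF-ESCs and 15.6-fold that of OSM-ESCs, and the 3 groups did not overlap. Bnip3, a receptor for the removal of mitochondria by autophagy, was at 149.7 and 157 TPM in -LIF-ESCs, 64.3 and 64.4 TPM in LIF-ESCs, and 48.7 and 41.5 TPM in OSM-ESCs (log2 fold changes of -1.24 and -1.75). Higd1a, a mitochondrial protein of the hypoxia response, fell by 0.37 on the log2 scale in LIF-ESCs and by 0.30 in OSM-ESCs. The latter passed at a limma adjusted p of 0.0173 and lost the test when either -LIF or either OSM replicate was left out (limma adjusted p between 0.0579 and 0.0733).

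Ankrd37, a small ankyrin repeat protein gene, was at 17.8 and 20.2 TPM in -LIF-ESCs, 2.22 and 2.81 TPM in LIF-ESCs, and 2.32 and 2.68 TPM in OSM-ESCs. Its log2 fold changes were -2.51 in each comparison, the lowest with LIF among the members that are not glycolytic. Ndrg1, a stress-response gene, was at 17.2 and 17.0 TPM, 5.40 and 5.70 TPM, and 4.67 and 4.14 TPM. Mxi1, a Myc antagonist, was at 16.5 TPM in both -LIF-ESC libraries, 7.40 and 6.75 TPM in LIF-ESCs, and 6.13 and 5.85 TPM in OSM-ESCs. Both were called lower, at -1.47 and -1.75 for Ndrg1 and at -1.12 and -1.32 for Mxi1. Ddit4, which encodes the mTORC1 inhibitor REDD1, was the most abundant of these genes, at 496 and 521 TPM in -LIF-ESCs, 297 and 299 TPM in LIF-ESCs, and 244 and 236 TPM in OSM-ESCs. It was called lower with OSM (-1.08) and fell by 0.77 with LIF. P4ha1 and P4ha2, the catalytic subunits of collagen prolyl hydroxylase, were also lower without reaching a call, at -0.77 and -0.76 with LIF and -0.76 and -0.67 with OSM.

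Of the 20 other members, 6 were higher with either cytokine, where 42.2% of all genes tested were higher with LIF and 42.9% with OSM. Gys1, muscle-type glycogen synthase, was at 16.2 and 14.0 TPM in -LIF-ESCs, 75.4 and 76.4 TPM in LIF-ESCs, and 63.6 and 63.1 TPM in OSM-ESCs. Vegfa, the vascular endothelial growth factor gene and a textbook HIF target, was at 15.3 and 14.2 TPM, 67.2 and 68.3 TPM, and 72.0 and 69.3 TPM. These were 5.01-fold and 4.18-fold increases for Gys1 and 4.60-fold and 4.80-fold increases for Vegfa, with log2 fold changes for Vegfa of 2.13 ± 0.05 (SE, n = 2 a group, limma adjusted p = 6.0e-06) and 2.19 ± 0.05 (limma adjusted p = 5.2e-06). Hif1a, the gene of the main alpha subunit, was at 41.2 and 43.0 TPM in -LIF-ESCs, 101 and 97.0 TPM in LIF-ESCs, and 102 and 92.4 TPM in OSM-ESCs, with log2 fold changes of 1.22 and 1.18. Epas1, which encodes HIF-2 alpha, was at 2.60 and 2.39 TPM, 14.1 and 14.0 TPM, and 9.32 and 9.55 TPM, with log2 fold changes of 2.11 and 1.58. Transcripts of both alpha subunits were thus higher in the groups in which most of the HIF targets among the members were lower. As background, HIF is controlled largely through protein stability, and no protein was measured in these libraries.

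Pdk1, the kinase that closes the pyruvate dehydrogenase complex, was at 43.4 and 44.4 TPM in -LIF-ESCs, 72.6 and 71.2 TPM in LIF-ESCs, and 62.4 and 61.8 TPM in OSM-ESCs, and rose by 0.70 and 0.49 on the log2 scale. Kdm3a, a histone H3K9 demethylase, was at 26.6 and 26.0 TPM, 45.5 and 44.3 TPM, and 43.6 and 42.0 TPM, and rose by 0.75 and 0.68. Both kept this direction after rescaling, at 0.51 and 0.29 for Pdk1 and 0.56 and 0.48 for Kdm3a. Adm, the peptide hormone adrenomedullin, had log2 fold changes of -0.32 and -0.06 and Gbe1, the glycogen branching enzyme, of -0.29 and -0.35, and neither passed the test in any comparison. After rescaling, Adm passed with LIF at -0.50 (limma adjusted p = 0.0164), and Gbe1 with LIF at -0.43 (limma adjusted p = 0.0253) and with OSM at -0.50 (limma adjusted p = 0.0157). Car9, carbonic anhydrase 9, is often used as a marker of hypoxia, and it lay between 0.481 and 0.920 TPM.

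Between OSM-ESCs and LIF-ESCs few members passed the adjusted test, all of them lower in OSM-ESCs. At a limma adjusted p under 0.05, 4 members were lower and 0 higher, where 0.129% of all genes were lower and 0.463% higher. Ndufa4l2 alone was called lower and 0 members were called higher, against 0.0485% and 0.0323% of all genes. By unadjusted p under 0.05, 18 members were lower and 0 higher, against 5.5% and 9.8% of all genes. On the same measure 9 of 15 embryonic stem cell markers were lower and 0 higher, and 23 of 26 fibroblast markers were higher and 0 lower, and their part in the members' differences was not tested. Both OSM-ESC libraries lay below both LIF-ESC libraries in 24 of the 40 members, and in 20.9% of all genes. They lay above both in 2 members, Eno1 and Vegfa, and in 26.3% of all genes. The log2 fold change was within 0.1 of 0 for 19 members.

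**Figure D5:**
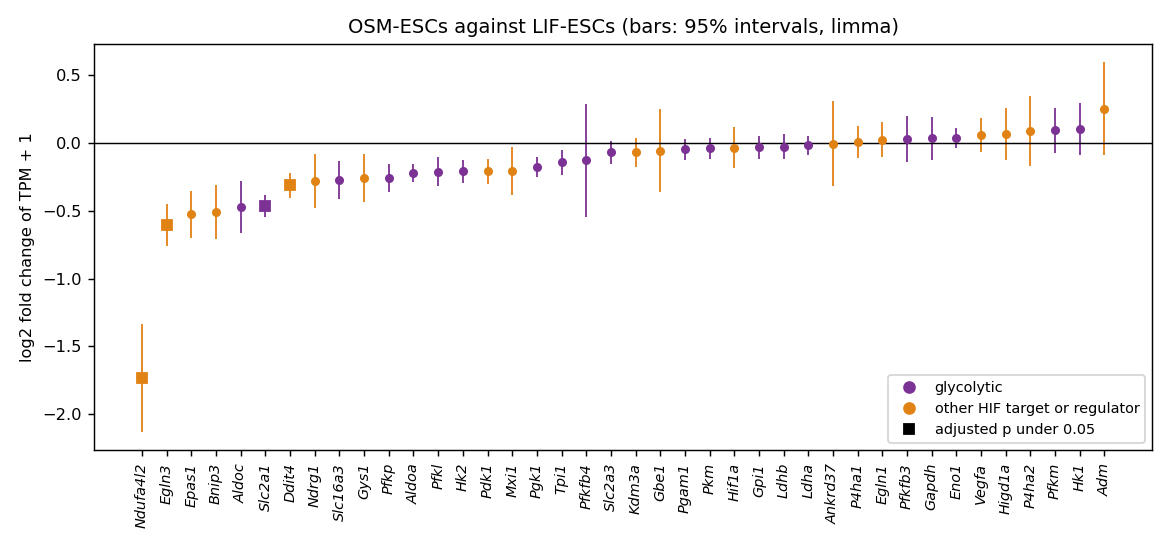
Log2 fold change of TPM + 1 in OSM-ESCs against LIF-ESCs for the 40 tested members in order of size, with 95% intervals from limma. Purple marks glycolytic members and orange the others, and squares mark the 4 members at an adjusted p under 0.05, and most points lie at or slightly below 0, with Ndufa4l2 apart at -1.73.

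Ndufa4l2 was 4.27-fold higher in LIF-ESCs than in OSM-ESCs, with a log2 fold change of -1.73 ± 0.16 (SE, n = 2 a group, limma adjusted p = 0.0300). The others were Egln3 at -0.61 ± 0.06 (limma adjusted p = 0.0390), Slc2a1 at -0.47 ± 0.03 (limma adjusted p = 0.0256) and Ddit4 at -0.31 ± 0.04 (limma adjusted p = 0.0494). None of these 4 passed the adjusted test when any of the 6 libraries was left out, with limma adjusted p from 0.0693 to 0.267, when the variance prior had no trend or when only the 2 groups were fitted. The replicate block gave limma adjusted p from 0.129 to 0.151. Ddit4 also lost the test without the filter on low values and with a pseudocount of 0.1 TPM. The direction was the same in all these settings. Epas1 at -0.53, Bnip3 at -0.51 and Aldoc at -0.47 lay between Egln3 and Ddit4 in size, with limma adjusted p of 0.0603, 0.0737 and 0.0787.

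For much of the main pathway, differences between OSM-ESCs and LIF-ESCs were small and their intervals narrow. The 95% interval of the log2 fold change was -0.08 to 0.05 for Ldha, -0.11 to 0.04 for Pkm and -0.04 to 0.11 for Eno1 without its copies. Aldoa, at -0.22 with an interval of -0.29 to -0.15, and Pgk1, at -0.17 with an interval of -0.25 to -0.10, had limma adjusted p of 0.0529 and 0.0893. Both were lower in both OSM-ESC libraries than in either LIF-ESC library, without passing the adjusted test.

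The full order of -LIF-ESCs above LIF-ESCs above OSM-ESCs, with no overlap between libraries, was seen in 20 of the 40 members and in 6.49% of all genes. It included 14 of 21 glycolytic members, among them Slc2a1, Hk2, Pfkl, Aldoa, Tpi1, Pgk1, Ldha and Slc16a3. Among the 19 others it included 6, namely Bnip3, Egln3, Ndrg1, Ndufa4l2, Mxi1 and Ddit4. Only Slc2a1, Egln3, Ndufa4l2 and Ddit4 of these passed the adjusted test between OSM-ESCs and LIF-ESCs. The gap between those groups could be very small, as for Ldha, at 346.2 and 350.5 TPM with LIF and 345.9 and 343.4 TPM with OSM.

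Further genes of the same pathways, outside the 41, went both ways. Of 19 tested further glycolysis genes, 11 were lower and 5 higher with LIF at an adjusted p under 0.05, and 11 lower and 6 higher with OSM. As some of the called genes, Eno3, the muscle enolase, was called lower at -1.35 and -1.41 and Pgam2, the muscle mutase, at -1.63 and -1.47. Tigar, a phosphatase that opposes phosphofructokinase by degrading fructose 2,6-bisphosphate, was called higher, at 16.3 and 19.4 TPM in -LIF-ESCs, 45.5 and 45.6 TPM in LIF-ESCs, and 43.6 and 45.1 TPM in OSM-ESCs. The pentose phosphate pathway, which branches from glycolysis, had 4 of 11 genes lower and 4 higher in each comparison, and Rbks, ribokinase, alone was called, higher at 1.64 and 1.66. Its summed TPM was 693 to 734 in all 6 libraries.

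For the entry of pyruvate into the mitochondrion, 6 of 13 genes were lower and 5 higher with LIF, and 6 lower and 6 higher with OSM. Pdhb, a subunit of pyruvate dehydrogenase, was called higher at 1.32 and 1.45, and Pdp2, the phosphatase that opens the complex, lower at -1.40 and -1.62. The summed TPM of this list was 432 and 446 in -LIF-ESCs and 582 to 607 in the other libraries, so that here -LIF-ESCs were lowest and the other groups overlapped. Among 17 tested glycogen genes, 7 were lower and 3 higher with LIF, and 8 lower and 3 higher with OSM. Pygl, the liver phosphorylase that breaks glycogen down, was called lower at -2.01 and -1.90, while the member Gys1, which builds it, was higher.

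In the HIF machinery outside the members, 9 of 14 genes were higher and 4 lower with LIF, and 8 higher and 4 lower with OSM. Arnt, the partner of the alpha subunits, rose by 0.87 and 0.79 on the log2 scale and Hif1an, the factor-inhibiting hydroxylase, by 0.86 and 0.79. Cited2, a HIF target that competes with HIF for the coactivator p300, was called lower, at 206 and 202 TPM in -LIF-ESCs, 56.8 and 58.1 TPM in LIF-ESCs, and 66.7 and 69.0 TPM in OSM-ESCs. Of 37 further HIF targets, 18 were lower and 11 higher with LIF, and 18 lower and 10 higher with OSM, with medians of -0.24 and -0.22. Of these, 10 were called lower and 7 higher with LIF, and 11 lower and 8 higher with OSM. Their log2 fold changes ran from -1.95 to 2.48 with LIF and from -2.18 to 2.99 with OSM. Bhlhe40, a circadian and hypoxia-induced repressor, was 1 of those called lower, at -1.78 and -2.04. The shares of all genes given above, 25.9% lower and 42.2% higher with LIF, also run both ways.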

How the data were processed

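The authors purified poly-A RNA at P10, aligned reads to mm10 with Hisat2 and counted them per gene with featureCounts (Trimmomatic is named in the submitters' notes). They deposited 1 table of TPM values for 28584 symbols in 6 libraries. Versions of the aligner and counter, the annotation, strand setting and the treatment of reads with several matches are not given in the sources used here. The authors' DESeq2 test of counts was not repeated, since TPM was deposited. One label names ovaries as the source of RNA, while all others name embryonic stem cells.

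A gene was tested where 2 or more libraries reached 1 TPM (18556 genes). Values were moved to log2(TPM + 1), and 1 limma 3.58.1 model of all 6 libraries (R 4.3.3, eBayes with its trend option after lmFit) left 3 residual degrees of freedom for a common spread. P-values were adjusted by Benjamini-Hochberg over all genes, and the thresholds for a call follow the methods of the study. The steps were tested on simulated data with 200 changed genes and the same spread for every gene. Of 2-fold changes, which sit at the limit for a call, 98% passed the adjusted p and 16% were called. Of 1.5-fold changes 60% passed, and of 16863 unchanged genes 17 were called. Far fewer genes changed there than between -LIF-ESCs and the other groups. Whole reads, within 0.02 of a read, were recovered for 94.9% of the genes matched once in GENCODE M21, and gave the depth and a voom fit. They were not recovered for Aldoa, Pgam1, Mxi1 and Epas1. Stretches of 50 bases were compared between GENCODE M21 transcripts. Promoters came from RefSeq (GRCm38.p6). Tables and plots were made in Python 3.11.15 (pandas 2.3.3, matplotlib 3.10.9, numpy 2.4.6).

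The members and gene lists were chosen with earlier results of these data known. Values in every library were given for members called in a comparison with no overlap, those past the adjusted p or among the 5 largest changes between OSM-ESCs and LIF-ESCs, and the most abundant enzyme of each step. Of the other lists, at most 3 called genes in each direction were eligible to be named. Arnt, Hif1an, the copies of Gapdh and Eno1, and Pdk1, Kdm3a, Slc2a3, Hk2, Pfkp, Eno1, Ldhb, Pgam1 and the marker genes were given beyond this rule or for a role in the text, with their values known. Replicates were compared as labelled, and nothing in the labels says that they came from separate cultures, so p-values measure the spread between these libraries only. Other settings tried were rescaling, voom, a replicate block, a fit of the compared groups alone, a variance prior without trend, 0.1 TPM as pseudocount, a filter at 5 TPM or none, calls with no limit on the fold change, and leaving out each library. Counts past the adjusted p alone and sums with gene copies were added after seeing the data.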

Additional observations from a re-analysis of the deposited data

Results flagged for a closer look

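The effects of LIF and of OSM, each against -LIF-ESCs, differed at a limma adjusted p under 0.05 for 4 members, all lower with OSM. The log2 fold changes of OSM-ESCs against LIF-ESCs were -0.47 for Slc2a1, -0.61 for Egln3, -1.73 for Ndufa4l2 and -0.31 for Ddit4. Both OSM-ESC libraries lay below both LIF-ESC libraries for each. These genes lost the adjusted test with any library left out.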

How the results depend on the processing

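Against -LIF-ESCs, 37 members past the adjusted p were followed in each comparison. With LIF, 511 results under the alternatives kept their direction and side of the threshold and 3 were weaker, all for Pfkp with a library left out. With OSM, 510 did and 4 were weaker, all for Higd1a with a library left out. No direction was reversed. With no limit on the fold change, the counts of members called lower became 31 with LIF, 31 with OSM and 4 for OSM-ESCs against LIF-ESCs. The last comparison was the fragile one. Its single called member became 0, and its 4 members past the adjusted p became 0, with eBayes without a trend, with only the groups compared, with the replicate block, and with each library left out (0 to 0 in both counts). With voom on recovered reads 16 members were past the adjusted p. Of the results followed there for 7 members, 56 were the same, 38 weaker and 3 stronger (Aldoc and Bnip3 with voom, Epas1 at 5 TPM). Deviations of same-numbered libraries correlated at only -0.04, -0.02 and 0.03, and the block changed no call against -LIF-ESCs. Such values cannot tell whether same-numbered libraries were handled together, which the labels do not say. In fits without a library, the lone library of a group was taken to vary like the others. With 2 libraries a group, small differences between the cytokines could be missed, and TPM shows shares of RNA, not amounts per cell.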
